A study of Mus musculus with 6 samples.

Results

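The 55 genes described here encode matrix proteins of the liver, the enzymes that build and cut that matrix, markers of hepatic stellate cells, TGF-β ligands and receptors, and matricellular proteins. They were chosen by name, as a list of 55 gene symbols, and all 55 were found once each among the 31950 genes of the table. To compare their transcripts with and without activated β-catenin, whole livers of 3 WT and 3 β-cateninΔ(ex3)/+ mice were profiled by RNA-seq, 1 library per liver. Both groups are labelled as C57BL/6 mice of 8 weeks, and the mutant mice carry 1 allele of *Ctnnb1*, the β-catenin gene, without exon 3. The study describes deletion of that exon by Alb-Cre, by a tamoxifen-inducible ERT2-Alb-Cre and by a Cre-adenovirus. In the study, Alb-Cre mutants did not live to the labelled age, and the name β-cateninΔ(ex3)/+ livers is used with the tamoxifen model. The labels of the sequenced livers do not name the Cre, the sex of the mice or any tamoxifen or virus given to WT mice. The albumin promoter is active in hepatocytes, so with an albumin-driven Cre, stellate cells are not the intended site of the deletion.

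Stellate cells lie between hepatocytes and the sinusoidal endothelium, store vitamin A when quiescent, and turn into contractile, collagen-secreting myofibroblasts when the liver is injured. They are the main source of fibrillar collagen in the liver, while portal fibroblasts, smooth muscle cells, endothelium and hepatocytes add other matrix proteins. TGF-β, released from latent complexes in the matrix, is the best known signal for collagen transcription in these cells, and β-catenin is the transcriptional coactivator of the Wnt pathway.

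Expression was given as FPKM, the fragments of a gene scaled to transcript length and to the mapped fragments of the library, so levels of different genes can be set side by side. Values of single livers are written below in the order of replicates 1, 2 and 3. The depth was estimated from the steps between low values as 24.4 to 24.7 M fragments in WT and 16.9 to 19.5 M in β-cateninΔ(ex3)/+ livers. Fold changes are the fitted difference of log2(FPKM + 1), β-cateninΔ(ex3)/+ over WT, and on this scale the change of low genes comes out too small. A gene was called lower or higher where the limma adjusted p was under 0.05 over the 13243 genes with a mean of at least 0.5 FPKM and the fold change on that scale was at least 2. Genes that are more than 2-fold lower in FPKM can therefore miss the threshold. The mean for the filter is taken over all 6 livers, so a gene near 0 in 1 group can pass through the other. *Ccn5*, near 0 in WT livers, and *Tnc*, near 0 in mutant livers, passed in this way. *Col15a1*, with a mean of 0.451 FPKM in WT livers, also passed only through the mutant livers. *Lox*, *Pdgfra*, *Postn*, *Thbs1* and *Fbn1* had means of 0.207 to 0.410 FPKM in mutant livers and passed through the WT livers. Nothing says more of the replicates than that they are separate livers. The limma p-values set the group difference against the spread within the groups of these 6 samples, moderated over all genes tested.

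The samples differed by more than the mutation. Of 15 Wnt target genes tested, 9 were called higher and 0 lower, with a median log2 fold change of 1.38. Among all genes tested, 8.17% were called higher and 4.52% lower. *Glul*, a β-catenin target encoding glutamine synthetase, had 103, 105 and 102 FPKM in WT livers and 626, 633 and 619 FPKM in β-cateninΔ(ex3)/+ livers, and the log2 fold change was 5.19 for *Oat* and 3.02 for *Rhbg*. *Ctnnb1* itself had 25.9, 28.0 and 27.3 FPKM in WT livers and 25.4, 25.2 and 25.0 FPKM in β-cateninΔ(ex3)/+ livers, which does not show the loss of an exon, since the values are per gene. *Xist*, the RNA of the inactive X chromosome, had 20.3 to 22.2 FPKM in WT livers and at most 0.0146 FPKM in the mutant livers, while the Y-linked *Eif2s3y* had 9.20 to 9.94 FPKM in the mutant livers and at most 0.0169 FPKM in WT livers. Of the 5 sex-linked genes listed, 3 were tested, and *Ddx3y*, also Y-linked, had 5.83 to 5.98 FPKM in the mutant livers and at most 0.0156 FPKM in WT livers. *H19*, an RNA abundant in the liver before and shortly after birth, had 2320 to 2374 FPKM in WT livers and at most 0.048 FPKM in the mutant livers. *Igf2*, a growth factor of the fetal liver, had 803 to 847 FPKM in WT livers and was listed at 0 in all 3 mutant livers. *Afp*, the fetal serum protein α-fetoprotein, had 601 to 612 FPKM in WT livers and 2.38 to 2.81 FPKM in mutant livers. Over the list of 15 young-liver genes, the summed level was 3885 to 3952 FPKM in WT and 10.1 to 12.96 FPKM in mutant livers, and 11 of the 12 tested were called lower and 1 higher. The labels give the same age for both groups. All 3 WT livers were alike in this, so no result can be given without it, and sex, liver maturity and genotype cannot be told apart in what follows.

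**Figure D1:**
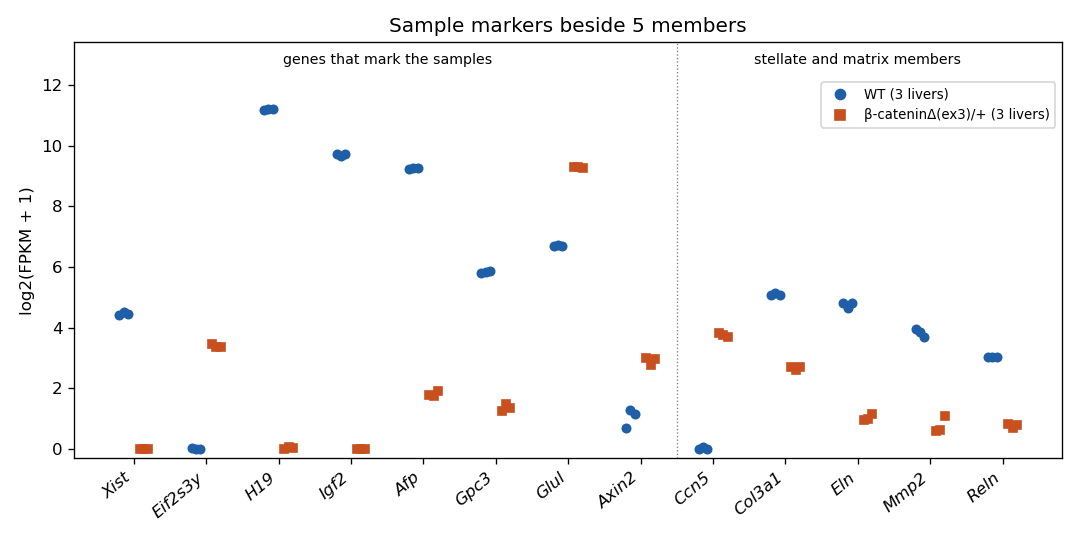
Levels of 8 genes that mark the samples and of 5 stellate or matrix genes in each of the 6 livers, as log2(FPKM + 1), with blue circles for WT and orange squares for β-cateninΔ(ex3)/+ livers. *H19* lies at 2320 to 2374 FPKM in WT livers and at no more than 0.048 FPKM in mutant livers, and *Col3a1*, *Eln*, *Mmp2* and *Reln* are also lower in all 3 mutant livers, while *Ccn5* is higher in all 3.

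To show sequence beside the main patterns, 4 members with an entry in the promoter table were taken. They are *Col3a1*, the most abundant fibrillar collagen of these livers, *Reln*, a marker that among liver cells is best known from stellate cells, and *Timp1* and *Ccn1*, which were higher in the mutant livers. The 250 bases before their RefSeq start sites (build GRCm38.p6) are printed 5′ to 3′ on the strand of the gene, at chr1:45311288-45311537 (plus strand), chr5:22344706-22344955 (minus strand), chrX:20869916-20870165 (plus strand) and chr3:145649986-145650235 (minus strand). Capitals mark the words searched for on both strands. CTTTGAT and, as a separate word, CTTTGT were used for the TCF/LEF partners of β-catenin. The palindrome GTCTAGAC and the shorter CAGACA were used for SMAD proteins, and TATAAA for the TATA box.
*Col3a1*: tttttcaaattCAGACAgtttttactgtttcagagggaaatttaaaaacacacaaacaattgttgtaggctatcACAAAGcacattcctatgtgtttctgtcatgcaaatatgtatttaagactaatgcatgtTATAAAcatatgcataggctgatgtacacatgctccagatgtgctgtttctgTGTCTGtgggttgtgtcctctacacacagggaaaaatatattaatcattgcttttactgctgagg
*Reln*: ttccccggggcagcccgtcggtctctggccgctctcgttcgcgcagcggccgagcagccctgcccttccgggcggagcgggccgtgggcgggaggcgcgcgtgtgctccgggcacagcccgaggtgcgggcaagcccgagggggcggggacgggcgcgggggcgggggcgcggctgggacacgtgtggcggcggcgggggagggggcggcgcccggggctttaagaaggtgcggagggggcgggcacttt
*Timp1*: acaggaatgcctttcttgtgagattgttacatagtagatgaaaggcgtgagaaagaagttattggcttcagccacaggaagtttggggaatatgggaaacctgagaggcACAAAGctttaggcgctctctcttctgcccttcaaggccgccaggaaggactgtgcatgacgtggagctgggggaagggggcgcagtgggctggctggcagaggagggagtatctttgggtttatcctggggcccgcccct
*Ccn1*: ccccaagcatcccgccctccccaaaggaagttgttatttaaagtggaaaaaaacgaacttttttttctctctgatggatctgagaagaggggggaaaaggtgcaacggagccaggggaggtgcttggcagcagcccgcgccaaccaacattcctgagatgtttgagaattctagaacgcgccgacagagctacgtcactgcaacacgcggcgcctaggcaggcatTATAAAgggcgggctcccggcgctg
The *Col3a1* window held TATAAA at -117 to -112, with CTTTGT on the minus strand at -176 to -171 and CAGACA once on each strand. The *Timp1* window held CTTTGT on the minus strand, at -141 to -136 from the start, as the only word. In the *Ccn1* window TATAAA stood at -25 to -20, and the *Reln* window held none of the words. Of the 55 members, 38 had an entry. Among these, CTTTGT was found for 5 (13.2%, against 18.6% of the 27025 genes in the table), CAGACA for 11 (28.9%, against 19.3%) and TATAAA for 7 (18.4%, against 14.3%). CTTTGAT was found for 0 of the 38 (3.72% of all genes), and GTCTAGAC for 0 (0.2% of all genes). The TCF/LEF words share their first 5 letters but cannot match at the same place. These matches describe letters in the windows, and binding data were not used here.

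Most of the stellate and matrix genes were lower in β-cateninΔ(ex3)/+ livers. Of the 55, 51 passed the filter on low values, and 23 of those were called lower, where 4.52% of all genes tested were called lower. 3 were called higher, where 8.17% of all genes were: *Timp1*, *Ccn1* and *Ccn5*. At an adjusted p under 0.05 and any fold change, 41 of the 51 were lower (80.4%, against 19.6% of all genes) and 5 were higher (against 37.4%). The 5 that did not pass were *Col4a1*, *Vim*, *Tgfb3*, *Tgfbr1* and *Ccn2*. The median log2 fold change over the 51 was -0.90, beside 0.14 over all genes tested. The list was chosen with earlier results of these data known, so its contrast with all genes is not independent of them. The 4 members under the filter, *Lama2*, *Hgf*, *Tgfb2* and *Ltbp1*, had lower values in every mutant liver than in any WT liver. Counted over all 55, the groups did not overlap for 51 members, 46 of them lower and 5 higher in the mutant livers. Of the 51 members past the filter, 42 did not overlap in the lower direction and 5 in the higher direction. Among all genes tested, 23% did not overlap in the lower direction and 43% in the higher direction. For each of the 51 members without overlap, counted over all 55, a two-sided exact permutation test gave p = 0.1, the smallest that 3 livers against 3 allow.

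Replicates lay close together. The median coefficient of variation of the members was 7.54% between WT and 9.08% between mutant livers, and the summed level of all 55 was 771 to 800 FPKM in WT against 371 to 394 FPKM in mutant livers. The members differ along the same split of the livers as *Xist*, *H19* and *Igf2*, whose part in these differences was not tested. In whole liver RNA, fewer cells of a type and less RNA per cell cannot be told apart. The scaling moved all genes slightly: with median-ratio scaling the median over all genes fell by 0.12 on the log2 scale and that of the members stood at -1.05, and with quantile normalization the median over all genes fell by 0.16 and that of the members stood at -1.11. The calls over all genes split into 1082 higher and 598 lower on the deposited values, 868 and 734 with median-ratio scaling, and 804 and 804 with quantile normalization.

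**Figure D2:**
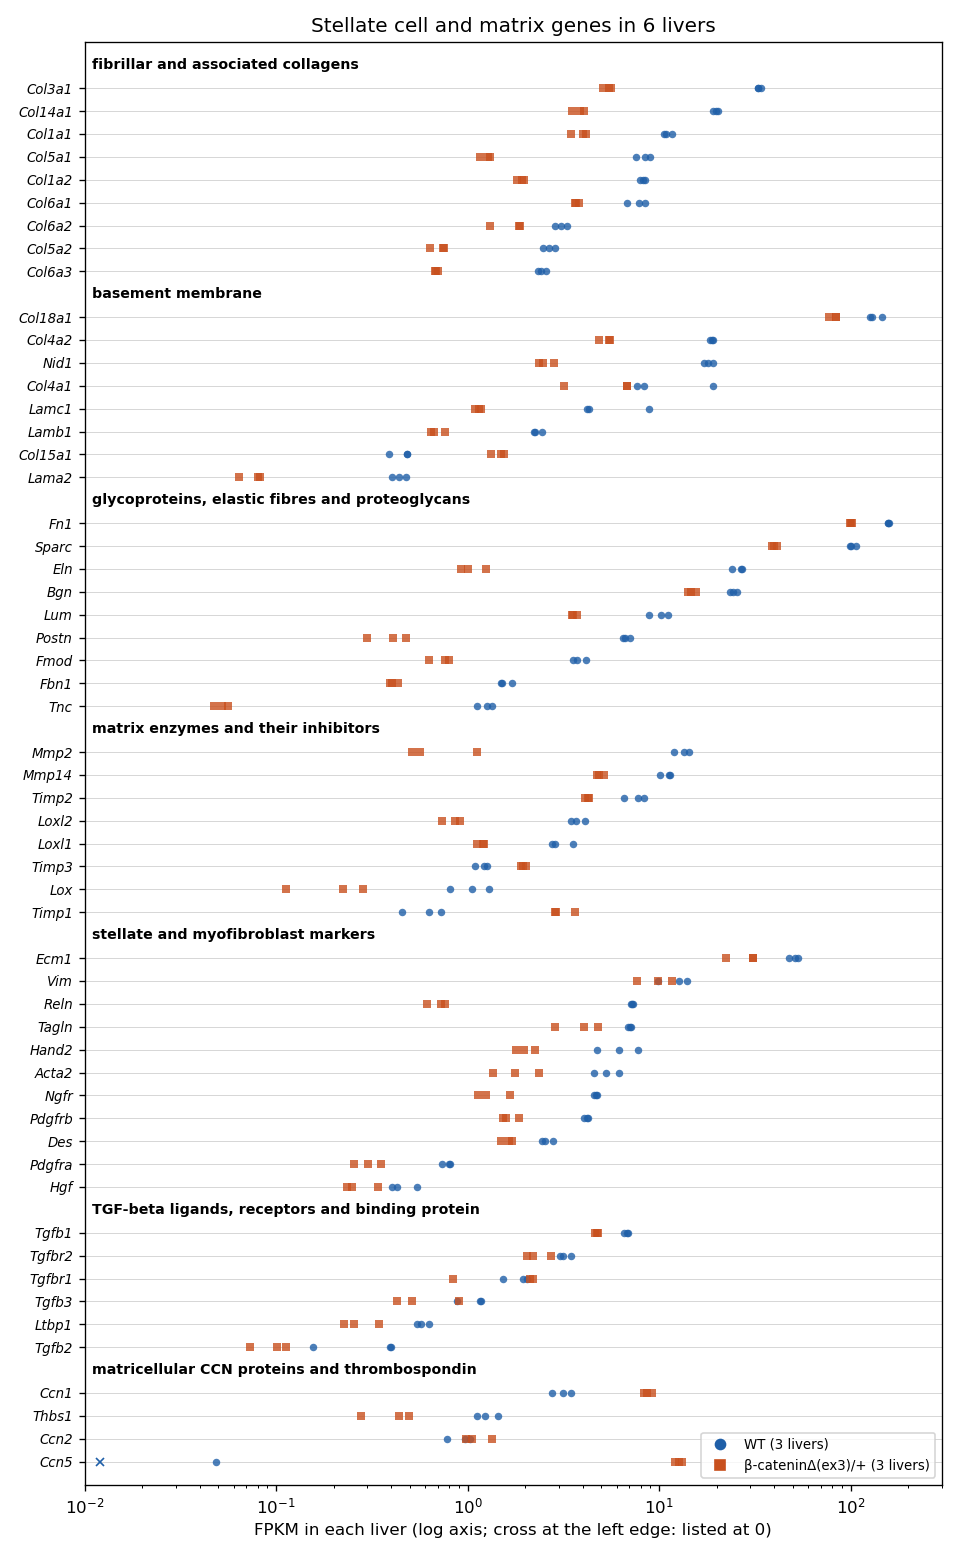
FPKM of the 55 members in each liver on a log axis, grouped by role, with blue circles for the 3 WT and orange squares for the 3 β-cateninΔ(ex3)/+ livers and a cross for a value listed at 0. The orange squares lie left of all blue circles for 46 of 55 members and right of them for 5, and the groups overlap for *Vim*, *Tgfb3*, *Tgfbr1* and *Ccn2*.

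All 9 fibrillar and associated collagens were lower, 7 of them by 2-fold or more on the log2(FPKM + 1) scale. Their summed level was 95.2 to 97.8 FPKM in WT and 22.8 to 23.2 FPKM in mutant livers. *Col3a1* (ENSMUSG00000026043, chromosome 1 from 45311538 to 45349706), the single chain of type III collagen, had 33.0, 34.1 and 32.8 FPKM in WT livers and 5.46, 5.09 and 5.60 FPKM in β-cateninΔ(ex3)/+ livers. The WT livers differed by little more than 1 FPKM and lay 6.19-fold above the mutant livers on average (log2 fold change -2.43, standard error 0.048, limma adjusted p = 3.49e-07). *Col1a1* and *Col1a2* encode the α1 and α2 chains of type I collagen, the main fibre of scar tissue. *Col1a1* had 10.9, 10.6 and 11.7 FPKM in WT livers and 3.47, 4.13 and 4.0 FPKM in β-cateninΔ(ex3)/+ livers (log2 fold change -1.31, standard error 0.071, limma adjusted p = 2.39e-05). *Col1a2* had 7.98, 8.22 and 8.39 FPKM in WT livers and 1.80, 1.98 and 1.91 FPKM in β-cateninΔ(ex3)/+ livers (log2 fold change -1.67, standard error 0.052, limma adjusted p = 2.28e-06). *Col1a1* was the more abundant of these chains in all 6 livers.

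Type V collagen nucleates thin fibrils inside type I fibres. *Col5a1*, its α1 chain, had 8.48, 7.61 and 8.94 FPKM in WT livers and 1.16, 1.28 and 1.3 FPKM in β-cateninΔ(ex3)/+ livers (log2 fold change -2.05, standard error 0.071, limma adjusted p = 3.75e-06). The lowest WT liver stood several-fold above the highest mutant liver. *Col5a2*, which lies 24614 bases from *Col3a1* on the opposite strand, had 2.47, 2.87 and 2.66 FPKM in WT livers and 0.746, 0.639 and 0.754 FPKM in β-cateninΔ(ex3)/+ livers, a smaller log2 fold change of -1.096. *Col14a1*, a collagen that sits on fibril surfaces, had 20.4, 19.7 and 19.1 FPKM in WT livers and 4.07, 3.85 and 3.52 FPKM in β-cateninΔ(ex3)/+ livers. Among these collagens it was the most abundant after *Col3a1* in WT livers (log2 fold change -2.11, standard error 0.059, limma adjusted p = 1.46e-06).

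Collagen VI forms beaded filaments. On the log2(FPKM + 1) scale the change was -1.03 for *Col6a3*, -0.88 for *Col6a1* and -0.61 for *Col6a2*, all with an adjusted p of at most 0.00357 in limma. The FPKM ratios of WT to mutant means were 3.54, 2.07 and 1.82. On the log2(FPKM + 1) scale *Col6a3* was no longer called without WT replicate 3 (-0.999), while with a pseudocount of 0.1 its change was -1.69. *Col6a1* was called lower with a pseudocount of 0.1 (-1.03), with median-ratio scaling (-1.02) and with quantile normalization (-1.09).

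Of the 8 basement membrane genes, 7 were tested, 3 were called lower and none higher at 2-fold. *Nid1* (ENSMUSG00000005397, chromosome 13 from 13437551 to 13512269), which encodes nidogen-1, the link between laminin and collagen IV, had 18, 19.1 and 17.1 FPKM in WT livers and 2.36, 2.47 and 2.82 FPKM in β-cateninΔ(ex3)/+ livers. All 3 mutant livers were under 3 FPKM and all 3 WT livers above 17 FPKM (log2 fold change -2.43, standard error 0.071, limma adjusted p = 1.77e-06). *Lamc1*, the laminin γ1 chain, had 4.21, 8.81 and 4.30 FPKM in WT livers and 1.17, 1.09 and 1.14 FPKM in β-cateninΔ(ex3)/+ livers. WT replicate 2 was about 2 times as high as the other WT livers, and the log2 fold change was -1.599 with it and -1.299 without it (limma adjusted p = 0.00239 and 7.3e-05). *Lamb1*, the laminin β1 chain, had 2.23 to 2.44 FPKM in WT and 0.641 to 0.761 FPKM in mutant livers, 3.34-fold lower on the FPKM scale. Its log2 fold change of -0.97 on the log2(FPKM + 1) scale missed the 2-fold threshold, and it was called lower with a pseudocount of 0.1 (-1.61), with median-ratio scaling (-1.06) and with quantile normalization (-1.08). The muscle-type laminin chain *Lama2* had 0.403 to 0.476 FPKM in WT and 0.0642 to 0.0829 FPKM in mutant livers.

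The α1 and α2 chains of collagen IV, the network of every basement membrane, are transcribed from neighbouring start sites on opposite strands of chromosome 8, and the annotated genes overlap by 22 bases. *Col4a2* had 19, 18.5 and 19.1 FPKM in WT livers and 5.45, 5.52 and 4.84 FPKM in β-cateninΔ(ex3)/+ livers, with tight replicates in both groups (log2 fold change -1.66, standard error 0.058, limma adjusted p = 3.63e-06). *Col4a1* had 8.39, 7.69 and 19.2 FPKM in WT livers and 3.18, 6.77 and 6.77 FPKM in β-cateninΔ(ex3)/+ livers. WT replicate 3 and mutant replicate 1 stood apart from their groups, and the difference did not pass the test (log2 fold change -0.902, standard error 0.40, limma adjusted p = 0.103). Without WT replicate 3 the log2 fold change was -0.52 and without mutant replicate 1 it was -0.604. Whether fragments were assigned by strand is not given in the sources used here, so fragments of a member and of a gene that overlaps it on the other strand may not have been told apart.

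*Col18a1* and *Col15a1* encode the multiplexin collagens of basement membranes, and *Col18a1* gives rise to endostatin and is made by hepatocytes. *Col18a1* had 129, 126 and 145 FPKM in WT livers and 76.8, 84.4 and 83.9 FPKM in β-cateninΔ(ex3)/+ livers, and fell by 0.70 on the log2 scale (standard error 0.069, limma adjusted p = 0.000326). *Col15a1* went the other way, with 0.481, 0.484 and 0.388 FPKM in WT livers and 1.32, 1.49 and 1.55 FPKM in β-cateninΔ(ex3)/+ livers. Its level was 3.22-fold higher on the FPKM scale, and the log2 fold change of 0.76 on the log2(FPKM + 1) scale stayed under 2-fold (standard error 0.067, limma adjusted p = 2e-04). With a pseudocount of 0.1 in place of 1 it was 1.498, past 2-fold. *Col15a1* passed the filter on low values only through the mutant livers.

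All 9 glycoproteins, elastic fibre proteins and proteoglycans were lower, 6 of them by 2-fold or more on the log2(FPKM + 1) scale. *Eln* (ENSMUSG00000029675, chromosome 5 from 134702593 to 134747323) encodes elastin, the core of elastic fibres, and had 26.9, 24.1 and 27.1 FPKM in WT livers and 0.929, 1.0 and 1.25 FPKM in β-cateninΔ(ex3)/+ livers. This was the largest decrease among the members, 24.5-fold on the FPKM scale (log2 fold change -3.71, standard error 0.081, limma adjusted p = 5.1e-07). *Fbn1*, the fibrillin of the microfibrils on which elastin is laid down, had 1.5 to 1.71 FPKM in WT and 0.396 to 0.433 FPKM in mutant livers, a ratio of 3.84. Its log2 fold change was -0.87 with a pseudocount of 1 and -1.71, past the 2-fold threshold, with one of 0.1.

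*Postn* and *Tnc* encode periostin and tenascin-C, matricellular proteins of growing and healing tissue. *Postn* had 6.64, 7.08 and 6.46 FPKM in WT livers and 0.298, 0.409 and 0.478 FPKM in β-cateninΔ(ex3)/+ livers (log2 fold change -2.47, standard error 0.072, limma adjusted p = 1.68e-06). *Tnc* had 1.12, 1.27 and 1.34 FPKM in WT livers and 0.0472, 0.0522 and 0.0561 FPKM in β-cateninΔ(ex3)/+ livers (log2 fold change -1.09, standard error 0.063, limma adjusted p = 3.2e-05). Both were under 0.5 FPKM in the mutant livers, and the FPKM ratio was 17.0 for *Postn* and 24.0 for *Tnc*. The fitted log2 fold changes differed by more than 1, since a pseudocount of 1 weighs more on the lower WT level of *Tnc*. With a pseudocount of 0.1 they were -3.80 for *Postn* and -3.14 for *Tnc*.

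*Fn1*, which encodes fibronectin, a plasma and matrix glycoprotein made in quantity by hepatocytes, was the most abundant member, with 156, 158 and 157 FPKM in WT livers and 99.6, 102 and 100.1 FPKM in β-cateninΔ(ex3)/+ livers. It fell by 0.64 on the log2 scale, less than any other of these 9 genes (standard error 0.027, limma adjusted p = 8.36e-06). *Sparc*, a collagen-binding matricellular protein, had 101, 107 and 99.8 FPKM in WT livers and 41.4, 40.01 and 39.1 FPKM in β-cateninΔ(ex3)/+ livers (log2 fold change -1.33, standard error 0.042, limma adjusted p = 2.52e-06). Among the small leucine-rich proteoglycans that bind collagen fibrils, the log2 fold change was -1.47 for *Fmod* (fibromodulin), -1.27 for *Lum* (lumican) and -0.69 for *Bgn* (biglycan), with an adjusted p of at most 0.000109. *Lum* had 8.89 to 11.2 FPKM in WT and 3.52 to 3.72 FPKM in mutant livers, and *Fmod* 3.56 to 4.13 FPKM and 0.632 to 0.804 FPKM.

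Of the 8 matrix enzymes and inhibitors, 3 were called lower and 1 higher. *Mmp2* (ENSMUSG00000031740, chromosome 8 from 92827291 to 92853420), a gelatinase that stellate cells and fibroblasts secrete, had 14.4, 13.5 and 11.9 FPKM in WT livers and 0.514, 0.564 and 1.12 FPKM in β-cateninΔ(ex3)/+ livers. Mutant replicate 3 was about 2 times as high as the other mutant livers and still far below every WT liver (log2 fold change -3.05, standard error 0.15, limma adjusted p = 1.45e-05). *Mmp14*, the membrane protease that activates the *Mmp2* proenzyme, had 11.2, 10.1 and 11.4 FPKM in WT livers and 5.15, 4.73 and 4.86 FPKM in β-cateninΔ(ex3)/+ livers (log2 fold change -1.01, standard error 0.062, limma adjusted p = 4.09e-05). It was at the 2-fold line, with log2 fold changes of -0.99 without WT replicate 1, -0.98 without WT replicate 3 and -0.99 without mutant replicate 2.

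The lysyl oxidases cross-link collagen and elastin. *Loxl2* had 3.48, 4.09 and 3.69 FPKM in WT livers and 0.858, 0.736 and 0.916 FPKM in β-cateninΔ(ex3)/+ livers (log2 fold change -1.37, standard error 0.074, limma adjusted p = 2.36e-05). *Loxl1*, the member of the family tied to elastic fibres, was 2.58-fold and *Lox* 5.07-fold lower on the FPKM scale. On the log2(FPKM + 1) scale the changes were -0.89 and -0.76, past the adjusted p but not the 2-fold threshold, and *Loxl1* was called lower with a pseudocount of 0.1 (-1.29) and with quantile normalization (-1.03). *Lox* had 0.806 to 1.29 FPKM in WT and 0.112 to 0.286 FPKM in mutant livers, and with a pseudocount of 0.1 its log2 fold change was -1.93, past the threshold.

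The tissue inhibitors of metalloproteinases did not move together. *Timp1* (ENSMUSG00000001131, chromosome X from 20870166 to 20874735), a secreted inhibitor that rises in injured liver, had 0.456, 0.723 and 0.631 FPKM in WT livers and 2.91, 2.87 and 3.62 FPKM in β-cateninΔ(ex3)/+ livers. It was 5.19-fold higher on the FPKM scale in the mutant livers, from a low level (log2 fold change 1.37, standard error 0.10, limma adjusted p = 9.89e-05). *Timp3*, the matrix-bound inhibitor, had 1.09, 1.26 and 1.22 FPKM in WT livers and 2.01, 1.94 and 1.9 FPKM in β-cateninΔ(ex3)/+ livers, a log2 fold change of 0.43. *Timp2*, which takes part in *Mmp2* activation, had 6.54 to 8.37 FPKM in WT and 4.08 to 4.32 FPKM in mutant livers, a log2 fold change of -0.703. The limma adjusted p was 0.00126 for *Timp3* and 0.000903 for *Timp2*.

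**Figure D3:**
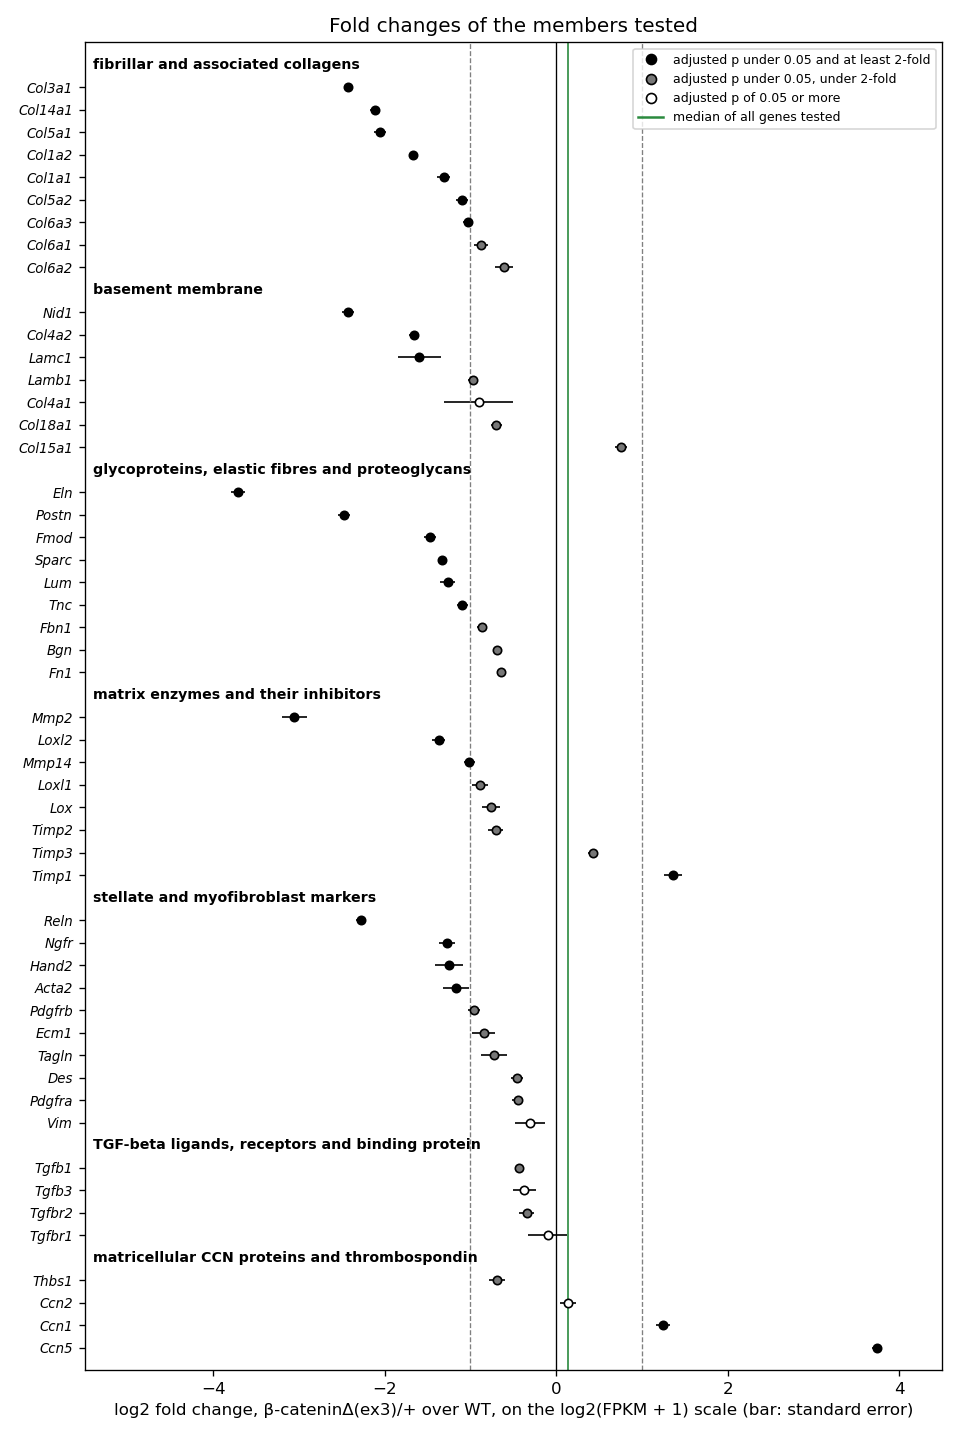
Fitted log2 fold changes of the 51 members tested (β-cateninΔ(ex3)/+ over WT, on the log2(FPKM + 1) scale), grouped by role, with standard error bars, dashed lines at 2-fold and a green line at 0.14, the median of all genes tested. *Eln* at -3.71 and *Ccn5* at 3.74 are the extremes, and the wide bar of *Col4a1* (-0.90) reflects a standard error of 0.40.

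Of the 11 stellate and myofibroblast markers, 10 were tested, 4 were called lower and none higher. *Reln* (ENSMUSG00000042453, chromosome 5 from 21884454 to 22344702), which encodes the secreted glycoprotein reelin, had 7.21, 7.28 and 7.17 FPKM in WT livers and 0.763, 0.612 and 0.730 FPKM in β-cateninΔ(ex3)/+ livers. The 3 WT livers were nearly equal and lay 10.3-fold above the mutant livers (log2 fold change -2.27, standard error 0.057, limma adjusted p = 9.39e-07). *Ngfr*, the low-affinity neurotrophin receptor on stellate cells, had 4.58, 4.67 and 4.73 FPKM in WT livers and 1.13, 1.25 and 1.66 FPKM in β-cateninΔ(ex3)/+ livers (log2 fold change -1.28, standard error 0.093, limma adjusted p = 8.45e-05). *Hand2*, a transcription factor of stellate cells, had 6.16, 4.75 and 7.78 FPKM in WT livers and 1.96, 2.24 and 1.80 FPKM in β-cateninΔ(ex3)/+ livers (log2 fold change -1.25, standard error 0.16, limma adjusted p = 0.000982).

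*Acta2* encodes smooth muscle α-actin, the usual marker of the activated, contractile state, and had 6.14, 5.25 and 4.58 FPKM in WT livers and 1.37, 1.77 and 2.35 FPKM in β-cateninΔ(ex3)/+ livers. The lowest WT liver was about 2 times as high as the highest mutant liver (log2 fold change -1.17, standard error 0.15, limma adjusted p = 0.0011). *Tagln*, which encodes the actin-binding protein transgelin of smooth muscle and myofibroblasts, had 6.85 to 7.12 FPKM in WT and 2.86 to 4.82 FPKM in mutant livers. Its log2 fold change was -0.72, and that of *Des*, the muscle filament desmin that marks rodent stellate cells, was -0.46, both past the adjusted p and under 2-fold. The intermediate filament gene *Vim*, expressed in most mesenchymal and immune cells, had 14, 12.8 and 9.89 FPKM in WT livers and 11.6, 9.83 and 7.68 FPKM in β-cateninΔ(ex3)/+ livers. These groups overlapped (log2 fold change -0.31, standard error 0.18, limma adjusted p = 0.183). With quantile normalization the log2 fold change of *Vim* was -0.59 (limma adjusted p = 0.0341).

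The PDGF receptors drive stellate cell proliferation. *Pdgfrb*, the main one on stellate cells, had 4.06 to 4.25 FPKM in WT and 1.52 to 1.86 FPKM in mutant livers, and *Pdgfra* 0.736 to 0.806 FPKM and 0.256 to 0.354 FPKM. On the log2(FPKM + 1) scale the differences were -0.96 and -0.45, and both were called with a pseudocount of 0.1 (-1.28 and -1.13). *Pdgfrb* was also called with median-ratio scaling (-1.08), with quantile normalization (-1.11) and without mutant replicate 3 (-1.01). *Ecm1*, a secreted matrix protein of the liver, was the most abundant of these markers, with 47.6, 51.1 and 53.4 FPKM in WT livers and 22.3, 31.1 and 30.9 FPKM in β-cateninΔ(ex3)/+ livers (log2 fold change -0.84, standard error 0.14, limma adjusted p = 0.00259). Mutant replicate 1 was the lowest, and the group lay below all WT livers. *Ecm1* was called lower with median-ratio scaling (-1.01) and with quantile normalization (-1.12). *Hgf*, the hepatocyte growth factor that stellate cells supply, was under the filter, with 0.403 to 0.547 FPKM in WT and 0.235 to 0.341 FPKM in mutant livers.

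Of the 6 TGF-β genes, 4 were tested, 2 were lower at any fold change and none was called at 2-fold, with a median log2 fold change of -0.36. *Tgfb1*, the main profibrotic ligand, had 6.90, 6.53 and 6.78 FPKM in WT livers and 4.60, 4.79 and 4.76 FPKM in β-cateninΔ(ex3)/+ livers. The groups did not overlap, with a decrease of limited size (log2 fold change -0.44, standard error 0.047, limma adjusted p = 0.000467). *Tgfb3* had 1.17, 0.877 and 1.17 FPKM in WT livers and 0.511, 0.903 and 0.426 FPKM in β-cateninΔ(ex3)/+ livers, with mutant replicate 2 inside the WT range (log2 fold change -0.37, standard error 0.13, limma adjusted p = 0.0519). In limma the adjusted p was 0.0111 without that liver, 0.0271 with median-ratio scaling and 0.028 with quantile normalization. *Tgfb2* and *Ltbp1*, a binding protein that holds latent TGF-β in the matrix, were under the filter. *Tgfb2* had 0.156 to 0.396 FPKM in WT and 0.0729 to 0.112 FPKM in mutant livers, and *Ltbp1* 0.547 to 0.630 FPKM and 0.225 to 0.343 FPKM. Their groups did not overlap, and the FPKM ratio of WT to mutant means was 3.31 for *Tgfb2* and 2.12 for *Ltbp1*.

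The type I receptor gene *Tgfbr1*, which lies 40054 bases from *Col15a1*, had 1.53, 1.94 and 2.03 FPKM in WT livers and 0.835, 2.13 and 2.20 FPKM in β-cateninΔ(ex3)/+ livers. Mutant replicate 1 alone was below the WT range, and without it the log2 fold change turned from -0.098 to 0.16, neither past the test (limma adjusted p = 0.738 and 0.229). *Tgfbr2*, the ligand-binding type II receptor, had 3.03 to 3.46 FPKM in WT and 2.05 to 2.71 FPKM in mutant livers, a log2 fold change of -0.35 (limma adjusted p = 0.02). Its adjusted p rose to between 0.0502 and 0.0618 when WT replicate 1 or 2 or mutant replicate 1 or 2 was left out.

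The CCN proteins are matricellular regulators of adhesion and growth, and here they moved apart. *Ccn5* (ENSMUSG00000027656, chromosome 2 from 163820861 to 163833146), also known as Wisp2, a Wnt-induced secreted protein, was listed at 0, 0.0484 and 0 FPKM in WT livers and at 13.1, 12.6 and 12 FPKM in mutant livers. In the mutant livers, of all members, *Fn1*, *Col18a1*, *Sparc*, *Ecm1* and *Bgn* alone had a higher mean level. No ratio is given against a group listed near 0, and the fitted value depends on the pseudocount, with 3.74 at 1 and 6.80 at 0.1 (standard error 0.058 with the pseudocount of 1, limma adjusted p = 1.33e-07). *Ccn1*, also known as Cyr61, an immediate-early gene of YAP and serum signalling, had 3.46, 2.75 and 3.16 FPKM in WT livers and 9.21, 8.68 and 8.38 FPKM in β-cateninΔ(ex3)/+ livers, an increase of 2.80-fold on the FPKM scale (log2 fold change 1.25, standard error 0.078, limma adjusted p = 4.54e-05).

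*Ccn2*, the connective tissue growth factor that TGF-β and YAP induce, did not follow *Ccn1*. It had 1.03, 0.783 and 0.966 FPKM in WT livers and 0.982, 1.05 and 1.35 FPKM in β-cateninΔ(ex3)/+ livers, and the groups overlapped (log2 fold change 0.14, standard error 0.092, limma adjusted p = 0.239). *Thbs1*, the thrombospondin that activates latent TGF-β, was lower, with 1.23, 1.12 and 1.44 FPKM in WT livers and 0.438, 0.495 and 0.277 FPKM in β-cateninΔ(ex3)/+ livers (log2 fold change -0.69, standard error 0.091, limma adjusted p = 0.0011). The FPKM ratio was 3.14, and with a pseudocount of 0.1 the change was -1.46 and was called.

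Read by level, the most abundant members came in the same order in both groups. *Fn1*, *Col18a1*, *Sparc* and *Ecm1* were the 4 highest in WT livers (means of 157, 133, 102 and 50.7 FPKM) and again in the mutant livers (means of 101, 81.7, 40.2 and 28.1 FPKM). *Col3a1*, the next in WT livers at 33.3 ± 0.725 FPKM (SD, n = 3), stood in the mutant livers at 5.38 ± 0.265 FPKM (SD, n = 3), below *Bgn*, *Ccn5*, *Vim*, *Ccn1* and *Col4a1* as well. *Eln* stood at 26.0 ± 1.65 FPKM (SD, n = 3) in WT and at 1.06 ± 0.170 FPKM (SD, n = 3) in mutant livers.

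Genes outside the 55 that serve the same pathways were counted from lists, each beside the shares of all genes given above. Collagen processing enzymes were mixed, with 2 of 21 tested called lower, 1 called higher and a median log2 fold change of -0.30. At an adjusted p under 0.05 and any fold change, 11 were lower and 7 higher. The summed level of the list was 562 to 570 FPKM in WT and 775 to 795 FPKM in mutant livers, opposite to the median. *Fkbp10*, a chaperone of procollagen, fell by 1.46 and *Pcolce*, the enhancer of procollagen cleavage, by 1.12 on the log2 scale. *Colgalt1*, which adds galactose to collagen, had 2.37, 8.31 and 5.12 FPKM in WT livers and 15.9, 15.6 and 14.9 FPKM in β-cateninΔ(ex3)/+ livers (log2 fold change 1.51, standard error 0.35, limma adjusted p = 0.0119), with a wide spread in WT.

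Of the other matrix proteins, 6 of 34 tested were called lower and 1 higher, with a median of -0.61. *Mfap2*, a microfibril protein that binds fibrillin, had 10.5, 8.41 and 8.72 FPKM in WT livers and 0.332, 0.394 and 0.161 FPKM in β-cateninΔ(ex3)/+ livers (log2 fold change -2.98, standard error 0.11, limma adjusted p = 4.62e-06). *Mfap4*, another elastic fibre protein, fell by 2.03 on the log2 scale. The type V collagen chain gene *Col5a3* was higher, with 1.43, 1.24 and 1.27 FPKM in WT livers and 5.72, 5.33 and 5.39 FPKM in β-cateninΔ(ex3)/+ livers (log2 fold change 1.48, standard error 0.059, limma adjusted p = 6.57e-06), opposite to *Col5a1* and *Col5a2* in the same livers.

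The list of further matrix proteases and inhibitors had 17 tested genes, 3 of them called lower and 2 higher, with a median of -0.52. Its summed level went the other way, with 73.5 to 74.7 FPKM in WT and 162 to 166 FPKM in mutant livers. *Ctss*, the lysosomal protease cathepsin S of macrophages, had 25.3, 26.3 and 26.6 FPKM in WT livers and 110.0, 111 and 111 FPKM in β-cateninΔ(ex3)/+ livers (log2 fold change 2.04, standard error 0.034, limma adjusted p = 1.77e-07). *Adam9*, a membrane protease, had a log2 fold change of 1.38, with WT replicate 3 at 1.67 FPKM and the other WT livers at about 5.1 FPKM. The largest decreases were those of *Mmp8*, the neutrophil collagenase, and *Mmp11*, each with a log2 fold change of -1.23. Of 20 integrins and matrix receptors, 0 were called lower and 1 higher, the syndecan gene *Sdc3* (1.41), and their median was 0.05, or -0.10 with median-ratio scaling. By limma at an unadjusted p under 0.05 the count called lower by 2-fold is also 0, since the lowest log2 fold change was -0.84.

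Among genes of TGF-β signalling and its targets, 6 of 32 were called lower and 1 higher, with a median of -0.29. *Tgfbi*, named for its induction by TGF-β, had 37.6, 37.3 and 38.5 FPKM in WT livers and 12.9, 12.8 and 12.5 FPKM in β-cateninΔ(ex3)/+ livers (log2 fold change -1.498, standard error 0.036, limma adjusted p = 7.74e-07). *Tgif2*, a repressor that binds SMADs, and *Ltbp4*, a latent TGF-β binding protein of elastic fibres, had log2 fold changes of -1.44 and -1.41. *Nox4*, an oxidase that TGF-β induces in myofibroblasts, was the only one called higher, from at most 0.00966 FPKM in WT to 1.19 to 1.35 FPKM in mutant livers. It passed the filter on low values only through the mutant livers.

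The list of quiescent stellate cell markers was lower as well, with 13 of 23 tested called lower, 1 called higher and a median log2 fold change of -1.07. At any fold change 21 of the 23 were lower with an adjusted p under 0.05. *Colec10*, a collectin of stellate cells, had 12.8, 14.2 and 12.8 FPKM in WT livers and 2.67, 2.54 and 3.16 FPKM in β-cateninΔ(ex3)/+ livers (log2 fold change -1.91, standard error 0.081, limma adjusted p = 8.24e-06). *Tcf21*, a mesenchymal transcription factor, and *Colec11*, a related collectin, had log2 fold changes of -1.601 and -1.5. *Steap4* was the gene called higher (1.22). The summed level of the list was 305 to 307 FPKM in WT and 172 to 182 FPKM in mutant livers.

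Lists of other cell types that contribute matrix were counted in the same way. Of 14 portal fibroblast and mesothelium genes tested, 1 was called lower (*Mfap4*, which is also on the list of matrix proteins) and 2 higher, *Clec3b* (1.96) and *Ly6c1* (1.86), with a median of -0.15. Of 7 smooth muscle and pericyte genes tested, the myosin light chain gene *Myl9* (-1.58) and the Notch target *Heyl* (-1.43) were called lower and 0 higher, with a median of -0.29. The adjusted p for those *Myl9* and *Heyl* changes was 1.64e-05 and 5.94e-05 in limma. All 19 sinusoidal endothelium genes tested were lower at any fold change, with a median of -0.62. On the log2(FPKM + 1) scale 3 of them were lower by 2-fold (*Stab2*, *Tie1* and *Oit3*).

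Kupffer cell and macrophage genes were higher, with 11 of 18 called higher, 1 called lower and a median of 1.09. *Folr2*, *Cd5l* and *Clec4f*, markers of resident Kupffer cells, had log2 fold changes of 2.01, 1.81 and 1.68. *Marco*, a scavenger receptor, had one of -1.36. The summed level of the 18 genes was 529 to 543 FPKM in WT and 1181 to 1194 FPKM in mutant livers. How far the share of each cell type in these livers bears on the stellate and matrix genes was not tested.

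**Figure D4:**
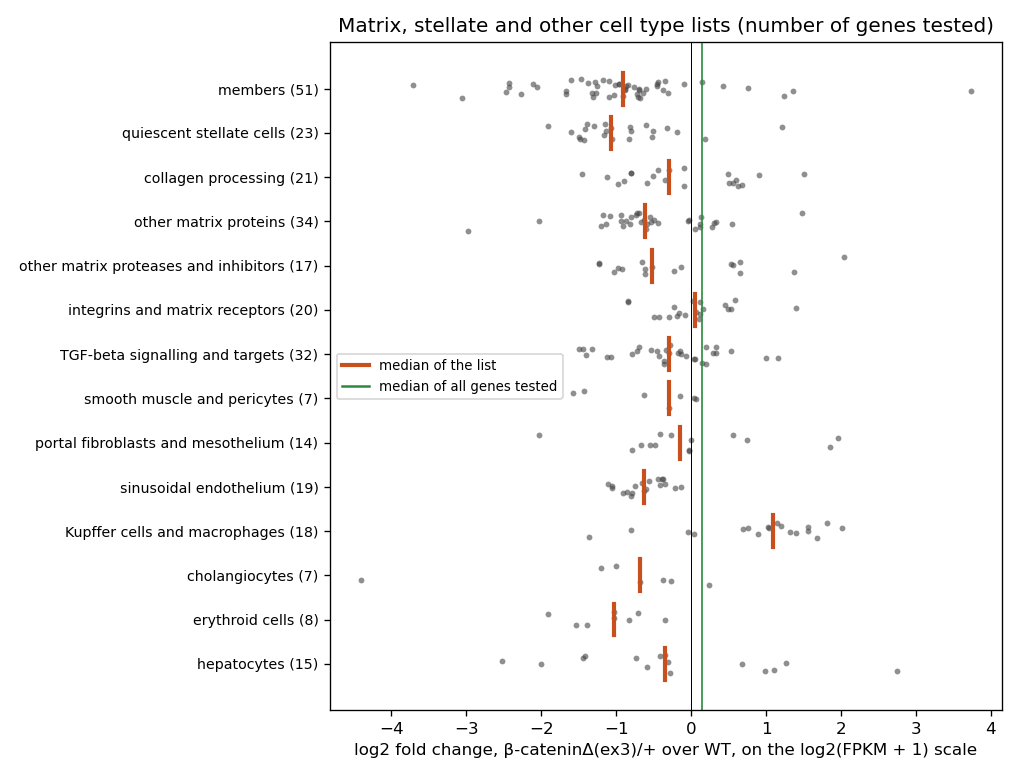
Log2 fold changes (β-cateninΔ(ex3)/+ over WT, on the log2(FPKM + 1) scale) of the genes tested in the members and in 13 other lists, each grey point a gene, each orange bar the median of its list and the green line the median of all genes tested (0.14). The median is -0.90 for the members and -1.07 for quiescent stellate cells, -0.62 for sinusoidal endothelium and 1.09 for Kupffer cells and macrophages.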

How the data were processed

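FPKM per gene and liver, as deposited by the authors, were analysed for 6 livers, and 0 value columns were left unmatched. The submitters' processing notes name cutadapt 1.9, HISAT2 2.0.4, StringTie 1.3.4d, DESeq2 and edgeR. The genome build is not given in the sources used here, and 28911 genes share start and end with GENCODE M21 (GRCm38).

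FPKM are not counts, so log2(FPKM + 1) was tested with limma 3.58.1 in R 4.3.3, using lmFit followed by eBayes with a trend on intensity, for genes with a mean of at least 0.5 FPKM. Calls needed a Benjamini-Hochberg adjusted p under 0.05 over all 13243 genes and a fold change of at least 2 on the log2(FPKM + 1) scale. The study set the same numbers on DESeq2 results, so the fold is not the same quantity. The procedure was tested on simulated data. Exact permutation tests and summaries used Python 3.11.15, scipy 1.17.1, pandas 2.3.3 and numpy 2.4.6. No counting intervals can be given. The depth is an estimate from the steps of 8644 single-exon genes, on which 21.1% to 29.7% of low values lay, against 4% by chance.

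The members, the 18 other gene lists and the tests were chosen with earlier results of these data known. Named genes were all members past both thresholds, the 2 most abundant members of each role, and up to 3 called genes of each other list with the largest change. The other members, and further genes of the other lists, were named after their values were seen. The rule takes 1 further gene, which is not reported here. Of the listed genes, *Mmp10*, *Fcn3* and *Tf* had no row. Alternatives were a pseudocount of 0.1, other filters, scalings, eBayes without a trend and thresholds, a replicate block, and each liver left out. Same-numbered livers did not deviate together (correlations 0.0268, 0.0213 and -0.0054), so the numbers do not pair them. RefSeq promoters were matched by symbol.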

Additional observations from a re-analysis of the deposited data

How the results depend on the processing

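The counts of members called lower and higher (23 and 3) were 31 and 4 with a pseudocount of 0.1, 27 and 3 with median-ratio scaling, 28 and 3 with quantile normalization, and 21 to 24 and 3 when each liver was left out. Accepting any fold change gave 41 lower and 5 higher among the 51 members tested, where 19.6% of all genes were lower and 37.4% higher. Among the 6 other matrix, TGF-β and stellate lists it gave 87 lower and 25 higher, against 30 and 7 at 2-fold. Those lists had 21, 34, 17, 20, 32 and 23 genes tested, and a gene on more than 1 of them was counted once. With a pseudocount of 0.1 they had 55 genes called lower, and with each liver left out 28 to 31 lower and 7 higher. The shares of all genes called with that pseudocount or with a liver left out are not given here. The members' median of -0.90 became -1.35 with a pseudocount of 0.1, -0.88 without a filter on low values (26528 genes), -0.99 at a mean of at least 1 FPKM (10969 genes), -1.05 with median-ratio scaling, -1.11 with quantile normalization and -0.95 to -0.83 when each liver was left out. A smaller pseudocount widens the differences of low genes by construction. With the other filters the median shifts only because members enter or leave it. Median-ratio scaling divided WT values by 0.945 to 0.959 and mutant values by 1.068 to 1.08, which lowers mutant values relative to WT. The cause of the other shifts was not tested. Of 758 comparisons of single members over 15 settings, 714 kept direction and side of the threshold. Another 39 newly passed the threshold of their setting, 20 of them only because any fold change was accepted. In 4 it was no longer passed (*Mmp14* without WT replicate 1, WT replicate 3 or mutant replicate 2, and *Col6a3* without WT replicate 3). *Tgfbr1*, at -0.24 to 0.16 when each liver was left out, turned positive without mutant replicate 1. The other filters, eBayes without a trend, the replicate block and the other thresholds leave each fold change unchanged by construction.

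With the replicate number as a block, 23 members were called lower and 3 higher and the median stayed at -0.90. At any fold change the block took the adjusted p of *Tgfbr2* to 0.0571 and that of *Vim* to 0.0123. FPKM hold no counts, so the precision of members with low FPKM is limited by a depth that is only estimated, and is less certain in the shallower mutant libraries.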

Other observations

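Other cell types of the liver were summarised by lists of their genes. Among all genes tested, 4.52% were called lower and 8.17% higher. Of 15 hepatocyte genes tested, 4 were called lower and 2 higher, with a median log2 fold change of -0.35. *Ahsg*, the serum protein fetuin-A, and *Apoa1*, the apolipoprotein of high-density lipoprotein, had log2 fold changes of -2.52 and -2.01, and *Tat*, the tyrosine aminotransferase of the adult liver, one of 2.75. Of 7 cholangiocyte genes tested, *Krt23* (-4.41), *Spp1* (-1.21) and *Cdh1* (-1.001) were called lower and 0 higher, with a median of -0.68. *Spp1*, which encodes osteopontin, a secreted phosphoprotein of bile duct cells, had 38.3, 37.1 and 34.8 FPKM in WT livers and 15.7, 14.5 and 15.9 FPKM in β-cateninΔ(ex3)/+ livers.

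Of 8 erythroid genes tested, 5 were called lower and 0 higher, with a median of -1.03, among them the anion exchanger gene *Slc4a1* (-1.905) and the adult globin gene *Hbb-bt* (-1.39). Of 12 lymphocyte genes tested, 4 were called lower and 1 higher, with a median of 0.04, or -0.04 with median-ratio scaling. At an adjusted p under 0.05 and any fold change, 5 of them were lower and 4 higher. The largest decreases were those of the B cell genes *Ighm* (-2.47), *Cd79a* (-2.202) and *Cd79b* (-2.19). Of 16 cell cycle genes tested, 3 were called higher and 0 lower, with a median of 0.39. These were the mitotic genes *Plk1* (1.68), *Ccnb1* (1.24) and *Tpx2* (1.05), and *Plk1* had 2.47, 2.03 and 2.82 FPKM in WT livers and 9.89, 9.79 and 10.2 FPKM in β-cateninΔ(ex3)/+ livers.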
